A study of Homo sapiens with 20 samples.

Results

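HSPA6 and 9 other heat shock genes were followed across the transcriptome of LNCaP prostate cancer cells. The 10 genes, HSPA6, HSPA1A, HSPA1B, HSPA8, DNAJB1, HSPH1, HSP90AA1, HSPB1, BAG3 and HSPE1, were taken by symbol from 57773 gene rows in each of 2 count tables. The set was chosen by the HSPA6 counts, which were much lower with doxycycline in the lines expressing a single EHMT1 mutation, so its values in those lines, and those of the other 9 genes in the same contrasts, are given as a description.

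Heat shock proteins are chaperones that hold, refold or hand on unfolded proteins. In stressed cells heat shock factor 1 (HSF1) forms trimers and binds repeats of the unit nGAAn in the promoters of its target genes, which are then transcribed strongly. HSPA6 is a strictly stress-inducible HSP70, HSPA1A and HSPA1B are the main inducible HSP70 pair, and HSPA8 is the constitutive HSP70 of unstressed cells. DNAJB1 is an HSP40 that stimulates HSP70, HSPH1 and BAG3 act on its nucleotide exchange, HSP90AA1 is the inducible cytosolic HSP90, HSPB1 is a small heat shock protein and HSPE1 is the mitochondrial partner of the chaperonin HSPD1. In prostate cancer cells HSP70 and HSP90 also hold the androgen receptor in a state that can bind hormone.

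The study asked how EHMT1, a lysine methyltransferase also called GLP, and its own methylation at the neighbouring lysines K450 and K451 affect transcription. LNCaP is an androgen-responsive human prostate adenocarcinoma line. In one experiment the parental cells received 20 nM of an siRNA pool against EHMT1 (siEHMT1, n = 2) or a nontarget pool (siNTC, n = 2) for 2 days. In the other, 4 stable lines carried a tetracycline-inducible, V5-tagged EHMT1 that was wild type (WT) or had lysine replaced by arginine (K450R, K451R and the dual mutant K450RK451R). Each stable line was given vehicle (Veh, entered as untreated among the treatments) or 0.25 µg/mL of doxycycline for 2 days (Dox). Each line came from lentiviral infection and puromycin selection of LNCaP cells, and all 4 also keep their endogenous EHMT1. A line without the transgene was not analysed here, so in each of the 4 lines the effects of doxycycline and of the transgene cannot be told apart.

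Total counts were 5593400 to 12438006 in the siRNA samples. The 2 columns of each stable-line condition differed by no more than counting noise (chi-square per degree of freedom 0.995 to 1.02), whereas those of siNTC (61.6) and siEHMT1 (13.4) differed by far more. The columns of a stable-line condition were therefore summed and counted as 1 sample, with totals of 8436791 to 12407739. Ratios between such samples have no replicate check, and their 95% intervals cover counting error only. EHMT1 itself was 85.5 ± 2.93 CPM (counts relative to the TMM-scaled library total, SD, n = 2) in siNTC and 29.9 ± 1.07 in siEHMT1 (log2 −1.51, edgeR adjusted p = 1.48e-07), and with Dox its level was 10.4-fold higher in WT, 10.0-fold in K450R, 10.1-fold in K451R and 7.46-fold in K450RK451R. KLK3, which encodes prostate-specific antigen, lay between 2910 and 8302 CPM, and the basal markers KRT5 and TP63 and the leukocyte marker PTPRC had 0 counts in every library. Other markers were not all absent in the siRNA samples. The basal marker KRT14 had 3 to 7 counts there and the leukocyte marker CD68 had 0 to 3. The fibroblast marker COL1A1 lay at 15.3 to 17.4 CPM and the endothelial marker VWF at 7.69 to 15.9 CPM, while COL1A2, LUM and CD3E had 0 counts. Per kilobase of exon in WT Veh, HSPB1 was highest at 436 CPM per kilobase, followed by HSPA8 (141), HSPA1B (39.2), HSP90AA1 (29.3), BAG3 (23.2), DNAJB1 (17.6), HSPE1 (8.04), HSPA6 (6.58) and HSPH1 (2.49). In bulk RNA, fewer expressing cells and less RNA per cell cannot be told apart.

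The promoters of these genes show where HSF1 motifs stand. In the 250 bases upstream of each start, adjoining head-to-head or tail-to-tail units, GAANNTTC or TTCNNGAA on either strand (each is its own reverse complement), were searched; they occurred in 11.6% of 35116 RefSeq promoters, and 3 alternating units in a row occurred in 0.441%. HSPA6 held 3 such pairs, 2 of them overlapping to form 1 run of 3 units close to the start. HSPA8 held 4 pairs in 2 runs of 3, HSP90AA1 held 3 pairs with 1 run of 3, DNAJB1 held 2 pairs, and HSPA1A, HSPA1B and HSPB1 held 1 each. HSPE1, BAG3 and HSPH1 held 0, and the HSPH1 entry begins 484 bases away from the GENCODE canonical start, so its window is not the canonical promoter. The 6 sequences below are shown because they belong to the HSP70 and HSP40 genes and to HSPB1, the genes on which the comparisons turn; units of a paired motif are in capitals, and the bases run 5′ to 3′ on the gene's strand up to the base before the start (RefSeq, GRCh38.p14 table, placed on GRCh37 by exact match).
HSPA6: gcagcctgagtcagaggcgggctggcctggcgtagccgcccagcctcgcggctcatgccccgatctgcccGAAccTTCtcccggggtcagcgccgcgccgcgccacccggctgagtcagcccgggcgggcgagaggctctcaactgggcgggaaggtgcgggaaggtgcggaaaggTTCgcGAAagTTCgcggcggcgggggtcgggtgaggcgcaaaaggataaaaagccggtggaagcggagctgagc
HSPA1A: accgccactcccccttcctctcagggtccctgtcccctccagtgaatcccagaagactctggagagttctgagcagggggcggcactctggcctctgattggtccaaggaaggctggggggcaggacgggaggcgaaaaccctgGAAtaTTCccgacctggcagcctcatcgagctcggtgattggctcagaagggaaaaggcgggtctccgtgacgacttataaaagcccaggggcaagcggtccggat
HSPA1B: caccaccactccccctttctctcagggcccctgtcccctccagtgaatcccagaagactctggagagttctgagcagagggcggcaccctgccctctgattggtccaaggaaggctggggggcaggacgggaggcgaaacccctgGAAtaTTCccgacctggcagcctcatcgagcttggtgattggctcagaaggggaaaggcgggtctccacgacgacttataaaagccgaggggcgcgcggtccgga
DNAJB1: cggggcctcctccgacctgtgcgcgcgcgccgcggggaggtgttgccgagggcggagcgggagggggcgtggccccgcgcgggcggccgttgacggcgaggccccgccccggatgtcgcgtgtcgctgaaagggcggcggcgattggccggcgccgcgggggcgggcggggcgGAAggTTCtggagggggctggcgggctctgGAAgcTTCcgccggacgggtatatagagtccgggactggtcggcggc
HSPB1: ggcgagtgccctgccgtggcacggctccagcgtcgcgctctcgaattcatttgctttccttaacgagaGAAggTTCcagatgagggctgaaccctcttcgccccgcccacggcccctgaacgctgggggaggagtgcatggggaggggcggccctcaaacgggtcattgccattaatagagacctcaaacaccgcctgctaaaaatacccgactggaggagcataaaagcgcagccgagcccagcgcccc
HSPA8: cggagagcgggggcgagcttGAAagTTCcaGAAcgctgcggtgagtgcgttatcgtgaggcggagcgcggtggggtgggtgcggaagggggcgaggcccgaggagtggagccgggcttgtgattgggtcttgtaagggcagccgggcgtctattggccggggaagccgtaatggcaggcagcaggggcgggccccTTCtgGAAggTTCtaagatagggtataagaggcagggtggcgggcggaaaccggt
The HSPA1A and HSPA1B stretches were identical at 235 of 249 aligned bases (94.4%), motif included. On GRCh37 the windows lie on the plus strand at chr1:161494080-161494329 for HSPA6, chr6:31783070-31783319 for HSPA1A, chr6:31795265-31795514 for HSPA1B and chr7:75931740-75931989 for HSPB1, and on the minus strand at chr19:14629210-14629459 for DNAJB1 and chr11:122932845-122933094 for HSPA8. The HSPA6 gene (ENSG00000173110) spans chr1:161494330-161496684 and HSPA1B (ENSG00000204388) chr6:31795515-31798031; all 10 genes are annotated as protein-coding, and the counts come from their exons. A match is a description of letters and not of binding. Only exact units within 250 bases were searched, so a 0 does not exclude other forms or positions of the motif.

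**Figure D1:**
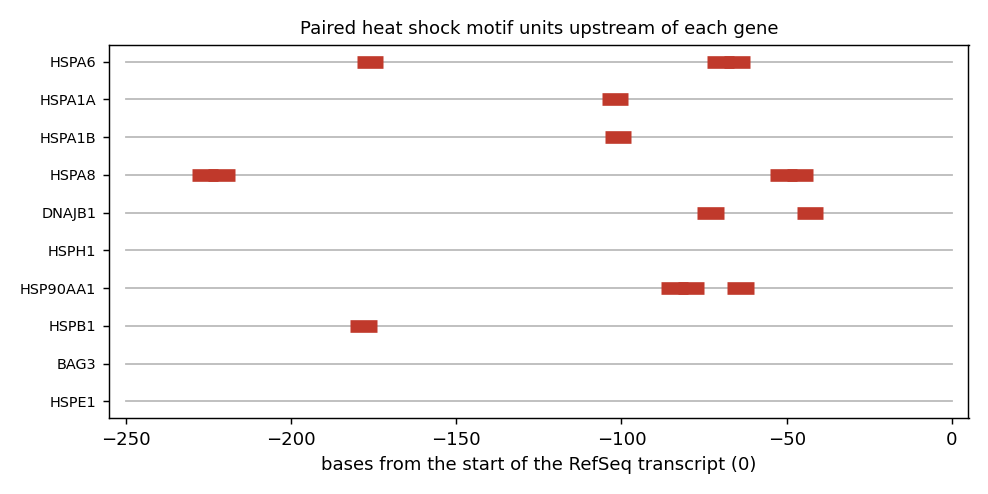
Positions of the paired units (red blocks) in the 250 bases upstream of the RefSeq start of each gene, with the start at 0 on the x axis. The run of 3 units in HSPA6 ends 61 bases before the start, the single pair of HSPA1A ends 98 and that of HSPA1B 97 bases before it, and the lines of HSPH1, BAG3 and HSPE1 are empty.

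The genes are close copies in part, which bears on the counts. Of the 51-base windows in HSPA6 exons, 55.5% recur exactly elsewhere in the genome, mostly in the pseudogene HSPA7. The share was 74.9% for HSPA1A and 71.5% for HSPA1B, which share 1764 windows with each other, and 14.1% or less for the other 7 genes. How the counting treated reads that fit several places is not given in the sources used here, so the split between these copies is uncertain. HSPA1A had 5 and 3 counts in WT Veh and WT Dox, 2 in K451R Dox and 0 in every other condition including all 4 siRNA samples, so HSPA1B is the member of the pair that can be followed.

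HSPA6 was at its highest in the WT line, where the interval of the Dox difference included no change. In WT it had 184 counts with Veh and 143 with Dox, or 15.5 and 16.1 CPM (log2 0.05, −0.27 to 0.38, and −0.04 with the second column alone). In K450R it had 58 and 1 counts, or 7.14 and 0.106 CPM, which is 67.1-fold lower with Dox with a counting interval of 11.6 to 2693. In K451R it had 62 and 14 counts, 7.52 and 1.14 CPM, a 6.62-fold lower level (3.66 to 12.8). Both of these contrasts served to choose the gene. K450RK451R, which did not, had 28 and 7 counts, 2.83 and 0.541 CPM, and the level was 5.24-fold lower with Dox (2.24 to 14.2). The 3 mutant lines thus had a lower HSPA6 level with Dox, with intervals that left out no change, while the WT interval included it.

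In order of HSPA6 level, WT Dox and WT Veh came first, and their intervals overlapped (13.6 to 18.9 and 13.3 to 17.9 CPM). K451R Veh and K450R Veh came next, again overlapping each other (5.76 to 9.64 and 5.42 to 9.22 CPM), and their intervals lay below those of WT. K450RK451R Veh (1.88 to 4.10 CPM) and K451R Dox (0.621 to 1.91) came next and overlapped slightly. K450RK451R Dox (0.217 to 1.11) overlapped K451R Dox, and K450R Dox (0.00269 to 0.593) stood last and overlapped K450RK451R Dox. The low level in mutant lines was therefore present without doxycycline: against WT Veh, the log2 difference of HSPA6 was −1.12 for K450R Veh, −1.04 for K451R Veh and −2.45 (−3.08 to −1.87) for K450RK451R Veh. The lines are separate cell populations with 1 sample each, so mutation and line cannot be told apart in this difference. In parental LNCaP cells, normalized apart from the stable lines, HSPA6 had only 7 and 5 counts in siNTC and 8 and 13 in siEHMT1 (0.660 to 1.04 CPM), the groups overlapped, and the gene was left out of the test for low counts.

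**Figure D2:**
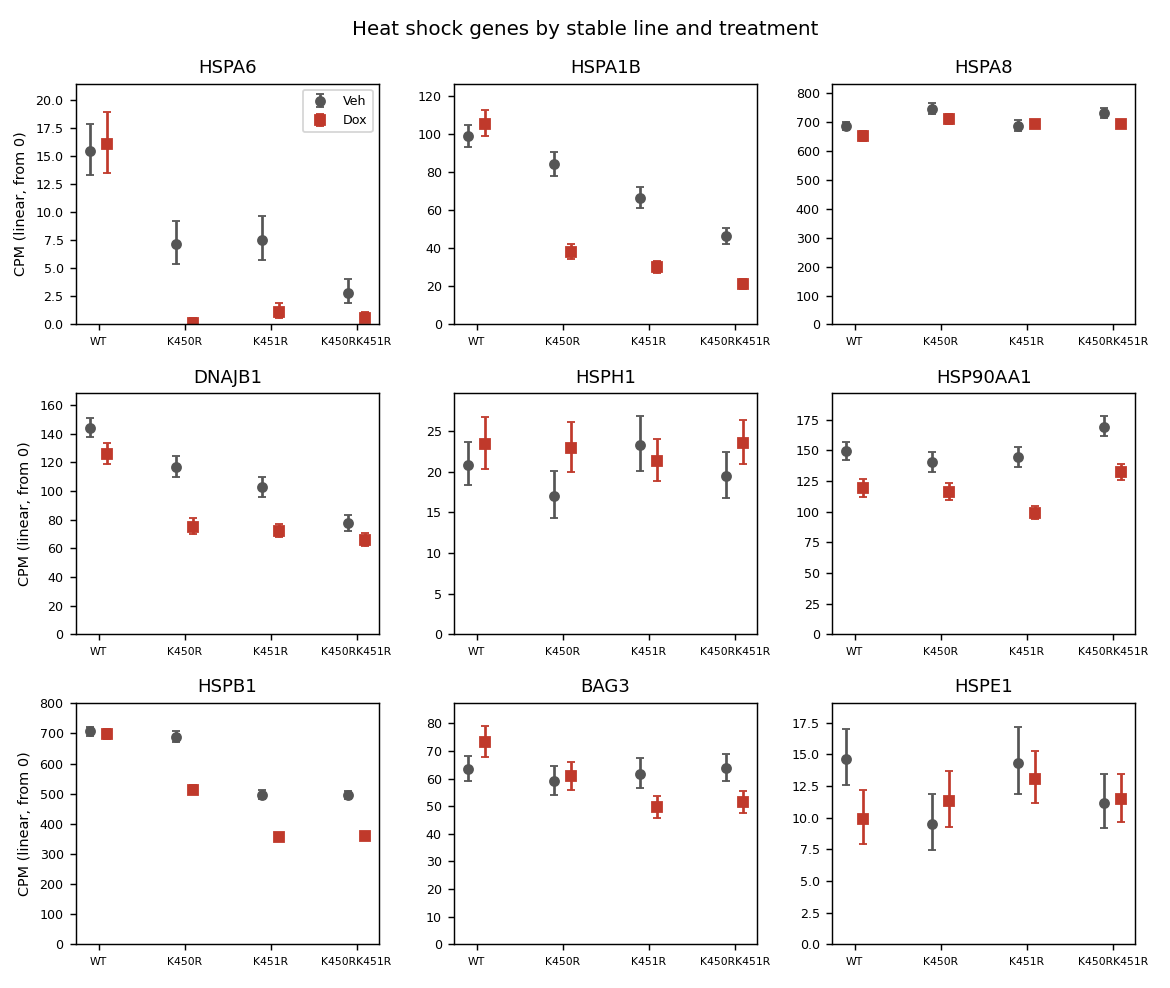
Level of 9 genes (CPM, linear axes from 0) in each stable line, Veh as grey circles and Dox as red squares, with 95% counting intervals and 1 summed sample per point. HSPA6 and HSPA1B overlap between Veh and Dox in WT and are lower with Dox in the 3 mutant lines, while HSPA8 stays between 651 and 745 CPM in all 8 conditions.

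HSPA1B, the inducible HSP70 that can be followed, showed the same arrangement at a higher count. WT had 98.8 CPM with Veh and 105 with Dox (log2 0.09, −0.03 to 0.22, and −0.02 with the second column alone). K450R had 84.3 and 38.0 CPM and K451R 66.5 and 30.0 CPM, each a log2 difference of −1.15. K450RK451R, the line that did not enter the choice, had 46.4 and 21.0 CPM (log2 −1.14, −1.37 to −0.92). The mutant lines thus had 2.21- to 2.22-fold lower HSPA1B with Dox at 272 to 685 counts a library, and K450RK451R was lowest under both treatments. With Veh alone the log2 difference of HSPA1B from WT was −0.23 with K450R, −0.57 with K451R and −1.09 with K450RK451R. When one of the 2 columns stood alone, HSPA1B came to −0.89 in K450R (column 1) and −0.95 in K450RK451R (column 2), just short of 2-fold.

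Across the 9 genes that passed the filter on low counts (HSPA1A did not), 0 were lower by 2-fold or more with Dox in WT, where 2.28% of all 14105 genes were. HSPA6 and HSPA1B, 2 of 9, were so in K450RK451R, where the share of all genes was 1.93%. Among the 9145 genes with a mean of at least 100 counts, which hold 8 of the 9 but not HSPA6, the share was 0.0656% in K450RK451R, and HSPA1B was 1 of 8. The same 2 genes were past 2-fold in K450R (2.25% of all genes) and K451R (1.94%), contrasts from which nothing is read here. Among the genes with a mean of at least 100 counts the share was 0.0656% in WT and K450R and 0.219% in K451R. The number higher by 2-fold or more was 0 in every line (1.67%, 2.38%, 2.03% and 2.90% of all genes in WT, K450R, K451R and K450RK451R).

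Intervals below no change were found for 4 of 9 genes in WT (HSPA8, DNAJB1, HSP90AA1 and HSPE1; 11.3% of all genes) and for 7 of 9 in K450RK451R (17.8%), all but HSPH1 and HSPE1. They were found for 6 of 9 in K450R (13.1%) and 6 of 9 in K451R (14.6%). Intervals above no change were found for BAG3 in WT (11.5% of all genes), for HSPH1 in K450R (12.8%) and K450RK451R (16.8%), and for 0 genes in K451R (12.6%). HSPA6, HSPA1B, DNAJB1, HSP90AA1 and HSPB1, 5 of 9, lay below no change in each of the 3 mutant lines, against 2.88% of all genes; among genes with a mean of at least 100 counts, where HSPA6 drops out, the share was 4.29%. As 2 of the lines had served for the choice, nothing is read from this. The median log2 difference of the 9 genes was −0.02 in WT and −0.31 in K450RK451R, against 0.00 for all genes in both. HSPA6 contributes 1 of these 9 values, and the median changes with the genes chosen.

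**Figure D3:**
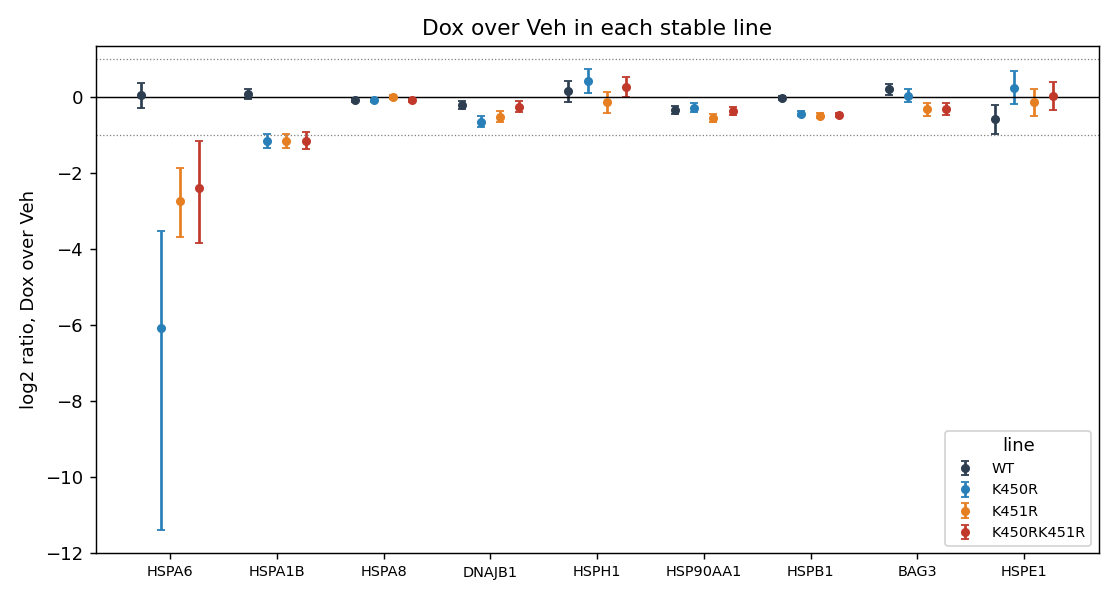
Log2 ratio of Dox to Veh for 9 genes in the 4 lines (points) with 95% counting intervals (bars); dotted lines mark 2-fold. The HSPA1B values of the 3 mutant lines lie at −1.14 to −1.15 and the WT value at 0.09, and the HSPA8 values of all 4 lines lie within 0.08 of 0.

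DNAJB1, the HSP40 partner of HSP70, was lower with Dox in all 4 lines. Its Veh and Dox levels were 144 and 126 CPM in WT (log2 −0.19, −0.30 to −0.08), in K450R 117 and 75.1 CPM (−0.64), in K451R 103 and 72.3 CPM (−0.51) and in K450RK451R 77.7 and 65.8 CPM (−0.24, −0.38 to −0.10). The WT and K450RK451R intervals overlapped, so in the line that did not enter the choice it did not show the arrangement of HSPA6. With Veh it was highest in WT and lowest in K450RK451R, as HSPA6 was, with a log2 difference of −0.89 between those lines.

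HSPB1, the small heat shock protein and the most abundant of the 10 per kilobase in WT Veh, had an interval that included 0 in WT and was lower with Dox in each mutant line. WT had 707 CPM with Veh and 698 with Dox (log2 −0.02, −0.07 to 0.03). K450RK451R had 496 and 358 CPM (log2 −0.47, −0.53 to −0.41), and K450R (689 and 513 CPM, −0.42) and K451R (497 and 356 CPM, −0.48) were similar in size. With Veh its log2 difference from WT was −0.51 both for K451R and for K450RK451R, and in K450R the interval of that difference (−0.09 to 0.01) included 0.

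HSP90AA1 was lower with Dox in all 4 lines, WT included. Veh and Dox levels were 149 and 119 CPM in WT (log2 −0.32), for K450R 140 and 116 CPM (−0.27), for K451R 144 and 99.0 CPM (−0.54), and for K450RK451R 169 and 132 CPM (−0.36). The WT and K450RK451R intervals (−0.44 to −0.21 and −0.45 to −0.26) overlapped, so this gene did not show the arrangement of HSPA6.

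BAG3 and HSPH1, which work on the nucleotide cycle of HSP70, differed from each other. BAG3 was higher with Dox in WT (63.4 to 73.3 CPM, log2 0.21, 0.06 to 0.36), near even in K450R (59.1 to 60.9 CPM) and lower in K451R (61.8 to 49.6 CPM, −0.32) and K450RK451R (63.9 to 51.5 CPM, −0.31, −0.47 to −0.15). HSPH1 stood at 17.0 to 23.6 CPM over all 8 conditions and was higher with Dox in K450R (log2 0.43) and K450RK451R (0.28, 0.01 to 0.55), with intervals that included 0 in WT and K451R.

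HSPA8 and HSPE1 stayed outside the pattern. HSPA8 lay between 651 and 745 CPM in the 8 conditions, with log2 differences of −0.07 in WT, −0.07 in K450R, 0.01 in K451R and −0.08 in K450RK451R (0.06 there with total-count scaling); its promoter printed above held the most motif pairs of the 10. HSPE1, at 77 to 174 counts, was lower with Dox in WT (log2 −0.57, −0.95 to −0.19), and its intervals in the 3 mutant lines included 0. It shares 327 exon bases with HSPD1 on the other strand and with the read-through HSPE1-MOB4, and the use of strand in counting is not given in the sources used here.

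With WT and K450RK451R as 2 pairs in one edgeR quasi-likelihood fit (line as a block, summed samples), 0 of 9 genes passed an adjusted p of 0.05, where 0.345% of 14500 genes passed. HSPA1B came nearest (log2 −0.44, SE 0.12, adjusted p = 0.0820), followed by HSP90AA1 (−0.34, SE 0.10, adjusted p = 0.186). The adjusted p in that fit was 0.567 for HSPB1, 0.796 for DNAJB1, 0.954 for HSPH1, 0.978 for HSPE1 and 0.988 for HSPA6 (log2 −0.28). At an unadjusted p under 0.05 there were 4 genes (6.23% of all genes), against 4 with limma-voom and 1 with DESeq2. The fit gives 1 common value for 2 lines whose own HSPA1B values were 0.09 and −1.14, and this value need not be their mean. For HSPA6 the values were 0.05 in WT and −2.39 in K450RK451R, and the common value was −0.28 with edgeR and −1.09 with DESeq2. The fit has 1 residual degree of freedom per gene, and the difference between the lines could not be tested. Each SE here and below is the size of the log2 value divided by the square root of the F statistic. It borrows spread from other genes and is not the spread between the 2 lines. For HSPA1B the unadjusted p was 0.000328 with edgeR and 0.372 with DESeq2.

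Silencing EHMT1 did not bring any of the 8 testable genes past the threshold, in edgeR's quasi-likelihood test on the 2 siEHMT1 and 2 siNTC samples; 0.131% of 14532 genes passed. At an unadjusted p under 0.05 there were 3 of 8 genes (9.55% of all genes), HSPE1, HSPH1 and HSP90AA1, all lower in siEHMT1, and DESeq2 and limma-voom also gave 3. HSPE1 was 29.3 and 40.2 CPM in siNTC and 22.8 and 20.9 in siEHMT1 (log2 −0.66, SE 0.15, edgeR adjusted p = 0.0919). Its call depended on single samples: without siNTC sample 1 it was −0.88 (adjusted p = 0.00128), without siNTC sample 2, where 10.0% of counts were on pseudogenes like ribosomal RNA, it was −0.42 (0.681), and with the replicate number as a block the adjusted p was 0.00693.

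HSPH1 was 122 and 122 CPM in siNTC and 94.5 and 104 in siEHMT1 (log2 −0.30, SE 0.09, edgeR adjusted p = 0.270). HSP90AA1 was 192 and 170 CPM against 156 and 147 (log2 −0.25, edgeR adjusted p = 0.362). For both genes the groups did not overlap, as was so for 4 of the 8 genes, all of them lower in siEHMT1; this held for 39.7% of all genes in either direction and for 19.8% in the lower one. HSPA1B, which was lower with Dox in the mutant lines, had 57.6 and 53.0 CPM in siNTC and 51.2 and 49.4 in siEHMT1 (log2 −0.14, SE 0.11, edgeR adjusted p = 0.719). HSPB1 (log2 −0.12), BAG3 (−0.04), HSPA8 (0.04, and −0.03 without siNTC sample 2) and DNAJB1 (0.09) overlapped between groups.

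**Figure D4:**
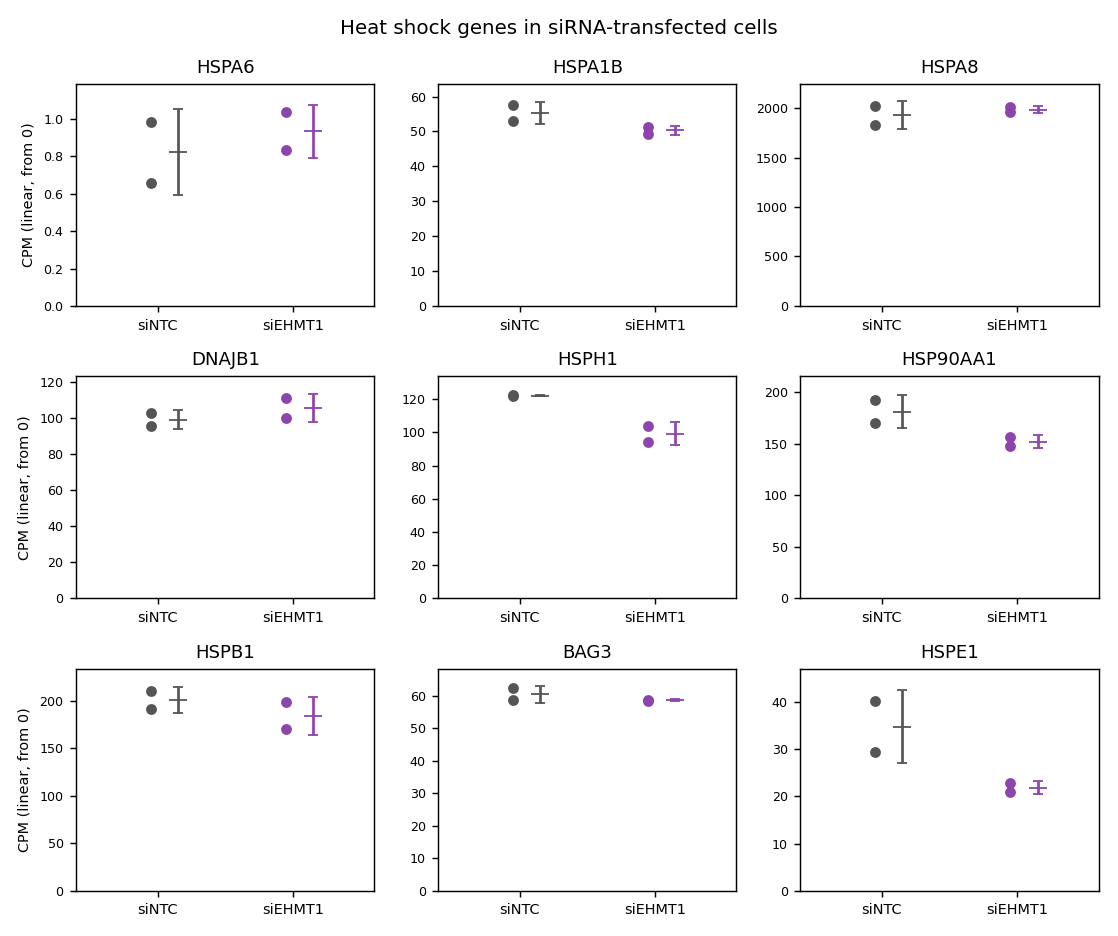
Level of 9 genes (CPM, linear axes from 0) in the 2 siNTC (grey) and 2 siEHMT1 (purple) samples, with points for samples and the mean ± SD beside them. HSPE1, HSPH1, HSP90AA1 and HSPA1B do not overlap between the groups, and HSPA6 stays at 0.660 to 1.04 CPM.

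The rest of the pathway was read from lists chosen with earlier results of these data known. Among 22 other HSF1 target genes, 21 passed the filter and 0 were lower by 2-fold or more in any line. Their median log2 difference with Dox was 0.01 in WT, −0.15 in K450R, −0.08 in K451R and −0.07 in K450RK451R. In the same order 9, 15, 14 and 13 of the 21 were lower, against 48.8%, 48.7%, 49.9% and 49.7% of all genes. In the siRNA comparison 12 of 20 were lower in siEHMT1 (50.4% of all genes), with a median of −0.02 and 0 past the threshold. HMOX1, heme oxygenase 1, was the highest of the list in K451R (0.43) and K450RK451R (0.28). HSPB8, a small heat shock protein, was the lowest in K450R (−0.85, on 42 and 27 counts), where HSPA4L was the highest (0.69). PTGES3 (0.24) and DNAJB4 (−0.63) were the extremes in WT.

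Among the heat shock factors, HSF1 stayed level while HSF4 did not. HSF1 was 110 and 118 CPM in WT Veh and Dox and 103 in both K450RK451R samples. HSF2 was 14.5 and 21.4 CPM in K450R Veh and Dox (log2 0.56, 0.22 to 0.90), and its intervals in the other 3 lines included 0. HSF4 was lower with Dox in WT (−0.79), K450R (−0.83) and K451R (−0.87) and not in K450RK451R (0.18, −0.27 to 0.63). With Veh HSF4 was at 14.1 CPM in WT, 17.3 in K450R, 14.6 in K451R and 7.18 in K450RK451R. With Dox it was at 8.21, 9.79, 7.96 and 8.11 CPM in the same order, so K450RK451R stood apart in its Veh level. In the siRNA comparison 0 of the 4 testable factors passed the threshold, and HSF4 came nearest, at 12.8 and 11.8 CPM in siNTC and 19.5 and 23.6 in siEHMT1 (log2 0.80, SE 0.17, edgeR adjusted p = 0.0685).

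In K450RK451R most other chaperone families had medians close to that of all genes (0.00). With Dox in K450RK451R the median was 0.06 for 9 other HSP70 genes, −0.02 for 18 other HSP40 genes, −0.05 for 12 genes of HSP90 and its cochaperones, 0.04 for 11 HSP70 cochaperones, −0.01 for 9 chaperonins and 0.06 for 15 chaperones of the endoplasmic reticulum. Of these, HSPA1L (testis-enriched HSP70, 15 and 50 counts, log2 1.35, 0.49 to 2.29) was higher by 2-fold or more in K450RK451R, and BAG2, a regulator of HSP70 (19 and 52 counts, 1.24, 0.46 to 2.08), was so in K450R. Both rest on few counts. Of 9 other small heat shock proteins only 3 passed the filter, with a median of 0.12. DNAJB6, an HSP40, was the lowest of its family in K451R (−0.71) and K450RK451R (−0.64). Among the ER chaperones, SDF2L1 was the highest in K451R (0.49) and DNAJB11 the lowest (−0.35); 0 of 15 were past 2-fold in any line. With Dox 12 of the 15 were lower in K450R (median −0.11, 48.7% of all genes lower) and 12 in K451R (−0.02, 49.9%). In WT 7 were lower (48.8%) and in K450RK451R 4 (49.7%). In the siRNA comparison 9 of 9 other HSP70 genes were lower in siEHMT1 (median −0.14), against 50.4% of all genes. So were 10 of 12 genes of HSP90 and its cochaperones (−0.03), but 1 of 3 other small heat shock proteins, and 0 of these passed the threshold. CRYAB, a small heat shock protein, had the largest value of all lists in the siRNA comparison, with 1.88 and 1.97 CPM in siNTC and 3.75 and 4.06 in siEHMT1 (log2 1.02, SE 0.35, edgeR adjusted p = 0.319).

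Genes with a pattern like HSPA6 were sought over the 8 stable-line conditions, by the Pearson correlation of log2(CPM + 1) with HSPA6 among 10865 other genes with a mean of at least 50 counts. The 5 most alike outside the 10 were ZNF649 (r = 0.993), GAB2 (0.986), ACBD4 (0.986), DAPK2 (0.980) and AURKAIP1 (0.979), but they varied far less: ZNF649 was 15.5 and 15.7 CPM in WT and 11.2 and 9.74 in K450RK451R. Among the heat shock genes DNAJB1 (r = 0.939) held rank 25 and HSPA1B (0.924) rank 37, HSPB1 was at 0.787, BAG3 at 0.676 and HSP90AA1 at 0.376, and HSPE1 (0.0631), HSPH1 (−0.206) and HSPA8 (−0.345) did not follow. The points are 8 libraries that share lines and depths. They include the K450R and K451R values that served to choose HSPA6, so the correlations and ranks are only a description. With a pseudocount of 0.1 in place of 1, 4 of the 5 genes stayed. With that pseudocount r was 0.877 for DNAJB1, 0.862 for HSPA1B and 0.696 for HSPB1.

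**Figure D5:**
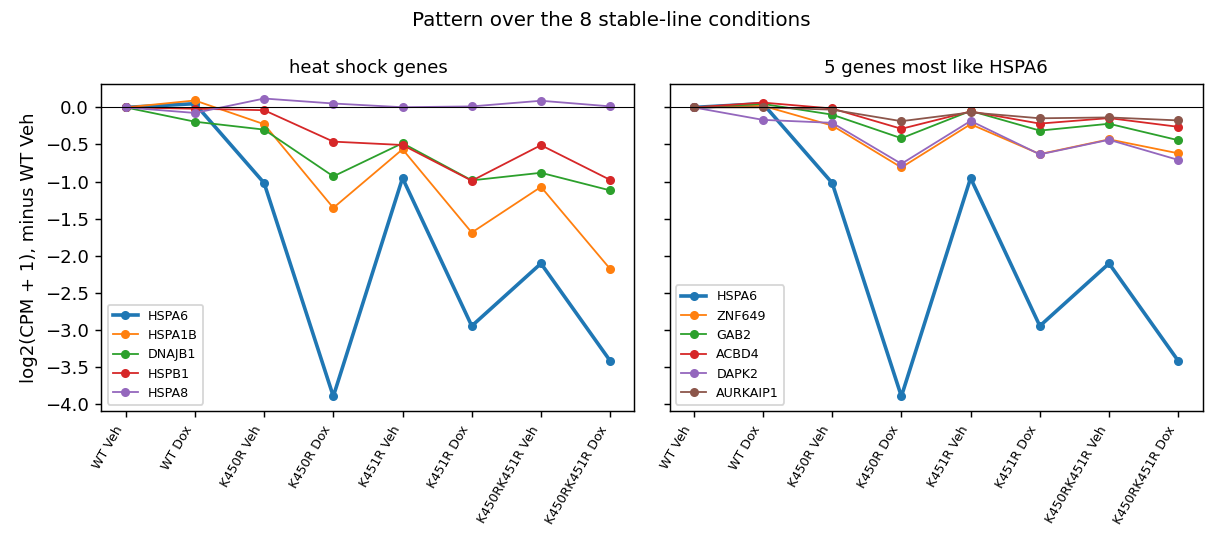
Log2(CPM + 1) minus the WT Veh value over the 8 stable-line conditions for HSPA6 and 4 heat shock genes (left) and for HSPA6 and the 5 genes most like it (right). HSPA1B lies lower in the mutant lines than in WT and lower still with Dox, as HSPA6 does but at a smaller size. DNAJB1 also lies lower in the mutant lines, but unlike HSPA6 it is lower with Dox in WT as well. HSPA8 lies between −0.07 and 0.12.

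Among the 9145 genes with a mean of at least 100 counts, HSPA1B had the third lowest mean log2 difference over the 3 mutant lines (−1.15), after NEAT1 (−1.33) and HILPDA (−1.24), named here after their values were seen; 2 of those lines had served to choose the genes. DNAJB1 ranked 103, HSPB1 107, HSP90AA1 179, BAG3 988, HSPA8 3607, HSPE1 5961 and HSPH1 8018, and the means of HSPE1 (0.05) and HSPH1 (0.19) were above 0. The nuclear RNAs MALAT1 and NEAT1 together were lower with Dox in every line, from 0.380% to 0.152% of counts in WT, 0.321% to 0.153% in K450R, 0.246% to 0.108% in K451R and 0.200% to 0.161% in K450RK451R. The mitochondrial share was 13.0% and 9.76% in WT Veh and Dox, for K450R 12.05% and 13.73%, for K451R 14.4% and 10.4%, and for K450RK451R 12.3% and 8.04%. This share was higher with Dox in K450R and lower in the other 3 lines. The lower MALAT1 and NEAT1 share was present in WT, where the HSPA6 and HSPA1B intervals included no change, and its part in the values of the other lines was not tested.

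The siRNA samples differed from the stable lines in the level of several of these genes. HSPA8 was 1829 to 2026 CPM there against 651 to 745 in the stable lines, and HSPH1 94.5 to 122 against 17.0 to 23.6. HSPB1 was lower, at 170 to 210 against 356 to 707. The tables were normalized separately and the 2 experiments were not compared by a test.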

How the data were processed

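RNA-seq read counts of 20 samples were analysed. The authors deposited raw counts per Ensembl gene for 2 tables, made from stranded total RNA libraries read as 51-nt single ends. The submitters' processing notes name FastQC 0.11.9, STAR 2.7.2, featureCounts 1.6.4 and the builds hg19 and GRCh37. The annotation release and use of strand are not given in the sources used here. The 10 genes and all gene lists were chosen with earlier results of these data known.

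Counts were scaled by TMM, filtered with filterByExpr and tested with edgeR 4.0.16 (quasi-likelihood, legacy = FALSE, R 4.3.3), with Benjamini-Hochberg adjustment over all genes tested; limma 3.58.1 and DESeq2 1.42.0 served as alternatives. Stable-line columns were summed after a chi-square comparison (genes of 20 or more summed counts). No source says that the siRNA samples came from separate cultures, so p-values measure only the spread between samples, which may be technical. Ratios have exact conditional 95% intervals, and a gene was called at 2-fold. The same-numbered siRNA samples did not deviate together (Pearson −0.00879 over 14532 genes), so the replicate block is an alternative. Other alternatives were upper-quartile scaling, DESeq2 size factors, total counts, single columns, other filters, no line block and each sample left out; the legacy quasi-likelihood method and a background of genes averaging 100 or more counts were chosen after seeing the data. From each list the genes past the call were named (at most 3 each way, averaging 20 or more counts), otherwise the highest and lowest; 1 gene that this rule names is not reported here. Levels per kilobase use GENCODE release 44 exon lengths. The scripts were tested on simulated data.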

Additional observations from a re-analysis of the deposited data

Results flagged for a closer look

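For 2 genes the effect of Dox had one sign in WT and the other in each of the 3 mutant lines. HSPA6 was at log2 0.0535 in WT and at −6.07, −2.73 and −2.39 in K450R, K451R and K450RK451R. HSPA1B was at 0.0946 in WT and at −1.15, −1.15 and −1.14 in the same lines. The difference was not tested, since each line has 1 sample per treatment. Both WT values have counting intervals that include 0, and with the second column alone they were −0.04 for HSPA6 and −0.02 for HSPA1B, so their sign in WT is not settled. The K450R and K451R values of HSPA6 had served to choose the genes.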

How the results depend on the processing

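In the siRNA comparison 0 of 8 genes passed the threshold under 6 of the 7 other normalizations, tests, filters and designs. The replicate block gave 1, HSPE1. Leaving out each sample in turn put the log2 value of HSPE1 between −0.88 and −0.42. Same-numbered samples did not deviate together, but this does not settle whether the numbers pair the samples. The count of all genes called was 19, and it was 12 with DESeq2, 12 with no filter on low counts, 118 with the replicate block and 34 to 106 with 1 sample left out, where the lone sample of a group is assumed to vary like the other. HSPA8 was 0.0408 (log2), −0.0319 without siNTC sample 2 and 0.117 without siNTC sample 1. Over WT and K450RK451R, 0 of 9 genes passed in each of 6 alternatives, while the count of all genes was 50, and 6 with DESeq2, 2 with no filter and 1 with no line block; the causes were not tested.

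In the stable lines, 2 genes were lower by 2-fold or more in each mutant line, and this came to 1 with the first column alone in K450R and 1 with the second column alone in K450RK451R. HSPA6 in K450R has no ratio with the second column alone, where its Dox count was 0. Of the single-gene values recomputed in each line, 42 or 43 stayed within their counting error and 2 or 3 did not. Scaling by total counts moved the median of all genes by 0.130 in K451R and 0.139 in K450RK451R (log2), and the values given are relative to TMM scaling. Depth limits HSPA6 and HSPA1A the most.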
